A study of Mus musculus with 8 samples.

Results

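Golgi glycosyltransferases were described in pancreatic endocrine cells of mouse embryos with and without the transcription factor Neurod1, starting from B3gnt3, an N-acetylglucosaminyltransferase. Genes were taken by symbol from 13 enzyme families (B3gnt, B3galt, B3galnt, B4galt, B4galnt, Galnt, Gcnt, Mgat, Fut, St3gal, St6gal, St6galnac and St8sia). Of 23284 gene rows, 82 carried such a symbol, and the 68 that reached at least 1 CPM in 4 or more libraries are described here. CPM is the usual depth-scaled count, here relative to library totals after TMM scaling, which adjusts totals for differences in composition between libraries.

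RNA was sequenced from 8 samples of sorted cells, 4 per genotype, taken at embryonic day 17. The KO libraries (replicates 8, 9, 17 and 24) came from Neurod1floxed/floxed embryos and the Het libraries (replicates 6, 7, 13 and 19) from Neurod1floxed/wt embryos. Both groups carried Neurog3Cre+ and RosaTomato+ on the C56BL/J strain as the labels spell it, so the Het controls also had Cre and a floxed Neurod1 allele, and no group had 2 intact copies. Neurog3-Cre acts in endocrine progenitors, and a sort for Tomato takes the descendants of those progenitors together, without choosing a hormone cell type. The labels do not say whether the libraries of a genotype came from separate embryos, how many embryos went into each, or which part of Neurod1 the floxed allele removes. P-values therefore measure the spread between these libraries, which may be technical.

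Glycosyltransferases of the Golgi transfer sugars from nucleotide donors to proteins and lipids on their way to granules and the cell surface. Some start a chain, others branch or lengthen it, and sialyltransferases and fucosyltransferases usually cap it, so the set of enzymes in a cell shapes the glycans it shows. In islet beta cells, branching of N-glycans by Mgat4a is known for keeping the glucose transporter Slc2a2 at the surface. B3gnt3 lengthens the O-glycan known as core 1, and Gcnt1 branches the same structure into core 2.

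Library totals ran from 10.35 M to 16.1 M counts, so that 1 CPM stood for 9.86 to 16.2 counts. Neurod1, the targeted gene, was at 2.55, 12.9, 22.2 and 21.5 CPM in KO 8, 9, 17 and 24 and at 133, 138, 141 and 210.5 CPM in Het 6, 7, 13 and 19. The groups did not overlap (log2 fold change of KO over Het −3.40, SE 0.52, edgeR adjusted p = 0.0165), and the adjusted p was over 0.05 without KO 9 or without any 1 of the Het libraries (0.0523 to 0.0732). KO 8 stood apart from the other libraries: its 11 mesenchyme markers summed to 9883 CPM, against 272 to 1252 CPM in the other 7 libraries, all 11 were highest in it, and none was at 0 in any library. The 12 endocrine markers summed to 20528 to 38289 CPM in KO and 62512 to 86008 CPM in Het, with 5 of 12 called and none at 0, so the labelled cell type had its defining markers in every library. In bulk RNA, fewer cells of a type and less RNA per cell cannot be told apart. The 7 leukocyte markers (0 of 7 called, none at 0) summed to 453, 249.9, 16.7 and 48.2 CPM in KO and 27.9 to 70.5 CPM in Het, and the 14 acinar markers (0 called, Pnlip at 0 in some libraries) to 14270 to 48582 CPM in KO and 11180 to 34942 CPM in Het. Of the duct, endothelial and Schwann or neural crest markers 0 were called and the summed ranges of the genotypes overlapped, with Kdr, Emcn, Tie1 and Foxd3 at 0 in some libraries. The part of these cell mixtures in the results below was not tested beyond the values given beside them.

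B3gnt3 was the member that fell, and Gcnt1 and St6gal1 were the members that rose. The counts of 14116 genes, all 68 members among them, entered a quasi-likelihood F test of the 2 genotypes in edgeR with Benjamini-Hochberg adjustment, and genes with an adjusted p under 0.05 are termed called. The 1 member called lower stands beside a background of 0.68% of all tested genes called lower, and the 2 called higher beside 0.34% called higher. The other 65 did not pass, 14 members had an unadjusted p under 0.05 where 12.2% of all tested genes did, and 41 members lay within 0.5 of 0 on the log2 scale. The median log2 fold change of the 68 was 0.15 against 0.03 over all tested genes, with 24 negative (35.3%) and 44 positive, against 46.6% negative over all tested genes, a share that the sign counts below can be read beside. Nothing is read from 3 calls about the members as a whole, since no test of the list was made. The fall of B3gnt3 was also known from an earlier report of these data when the list was chosen.

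**Figure D1:**
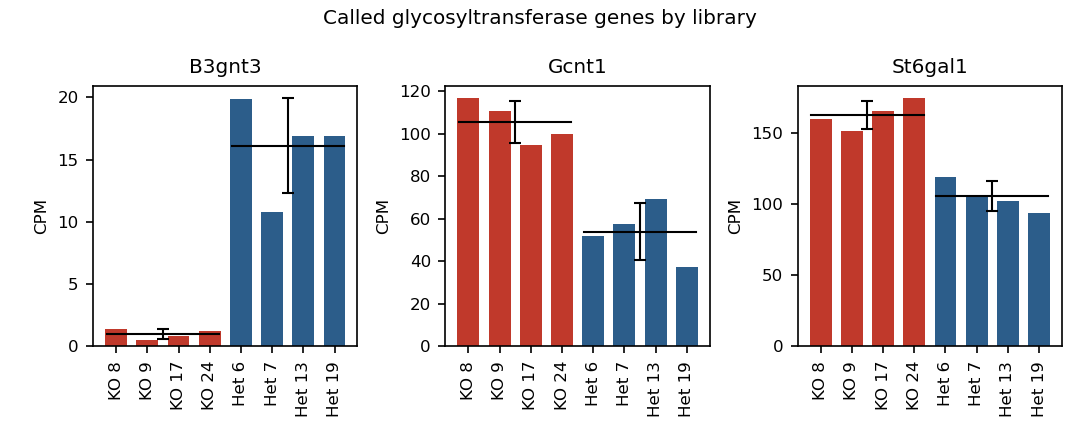
CPM (vertical axis, linear, from 0) of B3gnt3, Gcnt1 and St6gal1 in each of the 4 KO libraries (red) and 4 Het libraries (blue); black lines are group means and error bars 1 SD. B3gnt3 lay between 0.479 and 1.38 CPM in KO and between 10.8 and 19.9 CPM in Het, and for Gcnt1 and St6gal1 every KO library lay above every Het library.

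B3gnt3 had 19, 6, 11 and 14 counts in KO 8, 9, 17 and 24 and 257, 175, 191 and 167 counts in Het 6, 7, 13 and 19. On the CPM scale these were levels of 1.38, 0.479, 0.830 and 1.26 in KO and 19.9, 10.8, 16.9 and 16.9 in Het. All KO libraries were far below all Het libraries, and the lowest Het library, replicate 7, was still above the highest KO library, replicate 8. The mean fell from 16.1 ± 3.80 to 0.988 ± 0.414 CPM (SD, n = 4 each), which the fit gave as 16.2-fold lower (log2 fold change −4.02, SE 0.43, 95% interval −4.97 to −3.06, edgeR adjusted p = 0.00433). It was the only member whose groups did not overlap with KO lower, as was the case for 4.48% of all tested genes. Leaving out each library in turn gave log2 fold changes between −4.24 and −3.79 and adjusted p between 0.000564 and 0.0289, so the call was made each time. KO 8, the library with the mesenchyme markers, had the highest B3gnt3 level of the KO libraries. Counting error is large at 6 to 19 counts, and the Het counts were all 167 or more. In the authors' deposited table the log2 fold change of B3gnt3 was −4.03 (adjusted p = 4.20e-09).

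Neurod1 binds, with a partner of its helix-loop-helix family, to E-boxes of the letters CANNTG, often CAGATG, and the start region of B3gnt3 is shown to give the sequence context of the gene that fell most among the members. The 250 bases before its RefSeq start (GRCm38.p6, chr8:71701801-71702050, minus strand) read 5′ to 3′, with the E-box in capitals, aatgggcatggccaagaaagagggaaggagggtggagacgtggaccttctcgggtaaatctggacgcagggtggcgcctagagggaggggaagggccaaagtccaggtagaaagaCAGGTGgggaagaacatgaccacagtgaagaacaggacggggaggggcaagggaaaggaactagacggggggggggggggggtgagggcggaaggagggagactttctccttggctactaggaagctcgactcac. A search of both strands for CANNTG, and for CAGATG with its complement CATCTG, which are a subset of the first, found 1 CANNTG of the letters CAGGTG, beginning 135 bases before the start, and 0 of the narrower form. Of 32851 start windows of the same length from 27025 genes, 66.2% held CANNTG and 14.4% CAGATG or CATCTG. Among the members, 50 of 68 matched the promoter table by symbol, with 70 windows, of which 65.7% held CANNTG and 12.9% the narrower form. Gcnt1 had 3 listed starts with 1, 2 and 2 CANNTG and 0 of the narrower form. St6gal1 had 3 starts with 1, 0 and 1, the last of them CAGATG beginning 179 bases before the start. A match describes these letters only. The first 20 bases after the listed B3gnt3 start were in no GENCODE M21 transcript of the gene, so the start used in these cells is uncertain. No other coordinates are given, because the counts were made on build mm9.

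The other enzymes that lengthen chains with N-acetylglucosamine did not pass the test. B3gnt2, the main maker of poly-N-acetyllactosamine, was at 29.9, 31.9, 31.4 and 36.7 CPM in KO and 26.8, 38.9, 21.7 and 26.8 CPM in Het. The groups overlapped (log2 fold change 0.18, SE 0.21, edgeR adjusted p = 0.769). Exons of B3gnt2 share 2449 of 4180 bases with Gm28048 on the same strand, so reads of both genes can be mixed in its level. Of 7 rows in this role, 5 were described, 1 was lower and 4 did not pass, and their median log2 fold change was 0.06. B3gnt4 and B3gnt7 stayed under the level rule, as did B3gnt5, a glycolipid enzyme, which reached 13.6 CPM in KO 8 alone. Per kilobase of annotated exons (the union of GENCODE M21 exons), the Het mean level of B3gnt3 was 5.28 CPM per kb, next to 6.83 for B3gnt2, and in KO the means were 0.323 and 7.77.

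Gcnt1, the core 2 branching enzyme, rose. Its levels were 116.6, 110.5, 94.5 and 100.0 CPM in KO 8, 9, 17 and 24 and 51.8, 57.4, 69.2 and 37.4 CPM in Het 6, 7, 13 and 19. Every KO library was above every Het library, and the means were 105 ± 9.98 and 54.0 ± 13.2 CPM (SD, n = 4 each). The log2 fold change was 0.96 (SE 0.19, 95% interval 0.55 to 1.38, edgeR adjusted p = 0.0440). The call was close to the threshold: it was made without KO 8 (adjusted p = 0.0337) and lost without any 1 of the other 7 libraries (0.0688 to 0.131), with log2 fold changes between 0.81 and 1.11. With the acinar, leukocyte or Y-linked markers as a covariate the adjusted p was 0.0741, 0.0945 and 0.191, and with the endocrine markers, which include Neurod1 and do not overlap between genotypes in their sum, the log2 fold change was 0.50 (adjusted p = 0.462). The authors' deposited table gave 0.96 with an adjusted p of 0.0108.

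The other branching enzymes of O-glycans and of I antigen did not pass. Gcnt2, which makes the branches of I antigen on lactosamine chains, was at 84.7, 87.1, 90.9 and 102.3 CPM in KO and 65.8, 100.1, 120.1 and 94.2 CPM in Het, and its groups overlapped (log2 fold change −0.06, SE 0.18, edgeR adjusted p = 0.931). Of 6 rows in this role 4 were described and 1 was higher, with a median log2 fold change of 0.02; B3gnt6 and Gcnt3 stayed under the level rule. Because B3gnt3 and Gcnt1 act on the same core 1 glycan, the ratio of their counts was also taken, a measure chosen after their values were seen and given without a test. Gcnt1 had 84.2, 230.8, 114 and 79.5 times the counts of B3gnt3 in KO 8, 9, 17 and 24, and 2.61, 5.30, 4.10 and 2.21 times in Het 6, 7, 13 and 19. The ratio was higher in each KO library than in each Het library, as follows from the separate changes of its 2 genes. These are ratios of RNA counts, not corrected for gene length, and say nothing of enzyme activity.

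**Figure D2:**
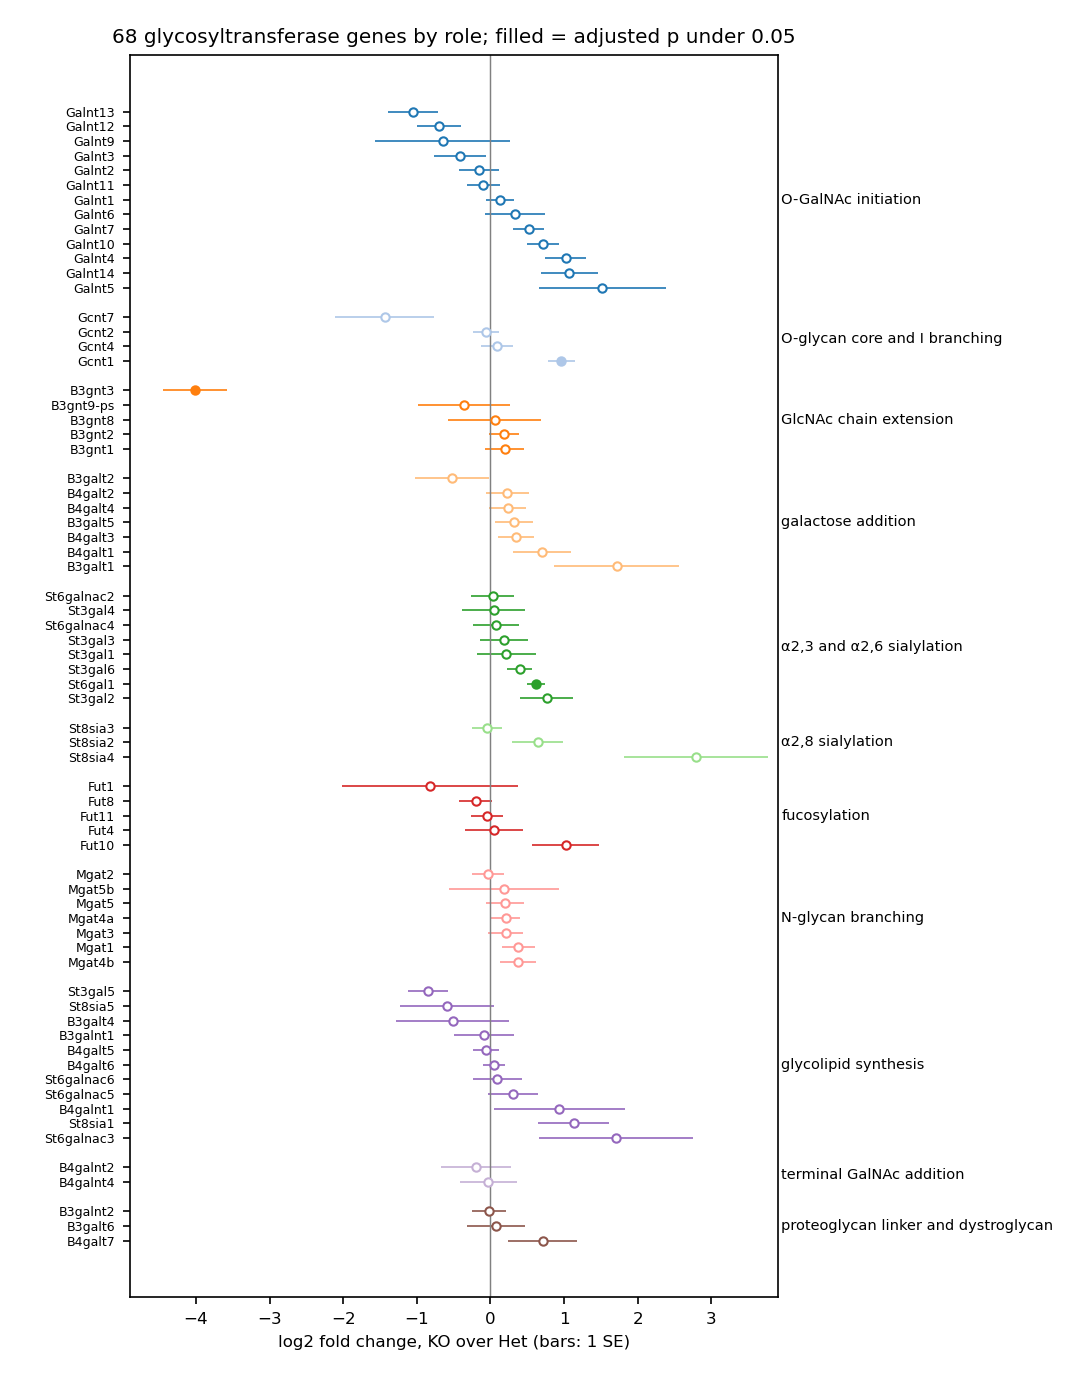
Log2 fold change of KO over Het (horizontal axis) for each of the 68 members, grouped by role; bars are 1 SE and filled points have an adjusted p under 0.05. B3gnt3 at −4.02 is far from the rest, Gcnt1 and St6gal1 are the filled points to the right, and wide bars mark members such as St8sia4 (SE 0.98).

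The 13 Galnt enzymes, which start O-glycans by adding N-acetylgalactosamine to serine or threonine, were all described, and none passed the edgeR test. Of the 13, 6 had an unadjusted p under 0.05, 4 with higher and 2 with lower values in KO. Over all tested genes 12.2% were under that level, and no test of this family was made. Galnt4 was at 104.3, 86.2, 54.7 and 70.8 CPM in KO 8, 9, 17 and 24 and 45.5, 35.2, 51.9 and 23.0 CPM in Het 6, 7, 13 and 19. Every KO library was above every Het library (log2 fold change 1.02, SE 0.27, edgeR adjusted p = 0.138), and it was called by DESeq2 (adjusted p = 0.0180) and with the mesenchyme markers as a covariate (0.90, adjusted p = 0.0438), but turned to −0.06 (adjusted p = 0.957) with the endocrine markers. Exons of Galnt4 share 420 of 5089 bases with Poc1b on the same strand, so reads of both genes can be mixed there. Galnt14 was at 7.94, 12.0, 11.7 and 16.4 CPM in KO and 4.71, 7.85, 3.18 and 7.10 CPM in Het, again without overlap (log2 fold change 1.07, SE 0.38, edgeR adjusted p = 0.289). Galnt10 was at 30.8, 47.3, 52.9 and 50.04 CPM in KO and 34.4, 23.2, 23.3 and 29.7 CPM in Het, with KO 8 below Het 6 (log2 fold change 0.71, SE 0.22, edgeR adjusted p = 0.209); it was called by limma-voom with quality weights (0.93, adjusted p = 0.0108) and with the mesenchyme markers as a covariate (0.77, adjusted p = 0.0421). With Gcnt1 and St6gal1, Galnt4 and Galnt14 made up the 4 members whose groups did not overlap with KO higher, as was the case for 3.55% of all tested genes.

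Of the other Galnt genes named here, Galnt13 and Galnt12 had lower means in KO and Galnt7 and Galnt1 higher means, also without passing. Galnt13, known from neural cells, was at 8.74, 12.9, 16.2 and 19.3 CPM in KO and 19.001, 20.3, 44.1 and 35.3 CPM in Het (log2 fold change −1.05, SE 0.34, edgeR adjusted p = 0.223). Its log2 fold change was −0.69 with the leukocyte markers as a covariate and −0.09 (edgeR adjusted p = 0.955) with the endocrine markers. Galnt12 was at 14.9, 9.81, 20.5 and 17.3 CPM in KO and 37.6, 19.3, 23.3 and 21.0 CPM in Het (log2 fold change −0.70, SE 0.30, edgeR adjusted p = 0.381). In both, 1 KO library lay above the lowest Het library. Galnt7, which prefers peptides that already carry a sugar, was at 40.2, 52.2, 41.3 and 49.4 CPM in KO and 41.6, 36.2, 24.8 and 24.9 CPM in Het, and its groups overlapped (log2 fold change 0.52, SE 0.21, edgeR adjusted p = 0.359). Galnt1 had the highest level per kilobase in this role, with a Het mean of 29.6 CPM per kb, and ran from 149.5 to 236.8 CPM in KO and from 142 to 214.6 CPM in Het (log2 fold change 0.12, SE 0.19, edgeR adjusted p = 0.844). The role divided into 6 negative and 7 positive log2 fold changes with a median of 0.12.

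St6gal1, which caps N-glycans with alpha2,6-linked sialic acid, was the other member that rose. It was at 159.9, 151.6, 165.5 and 174.7 CPM in KO 8, 9, 17 and 24 and 119.5, 106.7, 102.4 and 94.2 CPM in Het 6, 7, 13 and 19. The libraries of each genotype lay close together and did not overlap with those of the other, with means of 163 ± 9.71 and 106 ± 10.6 CPM (SD, n = 4 each). The log2 fold change was 0.62 (SE 0.12, 95% interval 0.35 to 0.90, edgeR adjusted p = 0.0456). The size held when each library was left out (0.56 to 0.69), but the call was made only without KO 8 (adjusted p = 0.0345) and lost without any 1 of the other 7 libraries (0.0705 to 0.179). It was also lost when genes of low counts were not filtered out (0.0776) and when the leukocyte (0.0752), acinar (0.0849), endocrine (0.164) or Y-linked (0.177) markers entered as a covariate. The authors' deposited table gave the same log2 fold change of 0.62 with an adjusted p of 0.254, so St6gal1 was not called there. Exons of St6gal1 share 200 of 4916 bases with BC106179 on the other strand, and the reads do not keep strand.

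The role of alpha2,3 and alpha2,6 sialylation had 8 described enzymes, without the sialyltransferases placed under glycolipid synthesis. All 8 had positive log2 fold changes, with a median of 0.20 against 0.03 over all tested genes, and 1 of the 8 passed. Of the alpha2,3 and alpha2,6 enzymes placed under glycolipid synthesis, St3gal5 was negative (−0.85). St6galnac3, St6galnac5 and St6galnac6 there were positive (1.71, 0.31 and 0.10). The levels of the 8 summed to 308 to 383 CPM in KO and 239 to 263 CPM in Het. These sums did not overlap, and St6gal1 gives a large share of them. St3gal6 was at 39.4, 46.0, 48.3 and 56.2 CPM in KO and 32.6, 42.1, 32.2 and 37.2 CPM in Het (log2 fold change 0.40, SE 0.17, edgeR adjusted p = 0.394). Its exons share 1603 of 6172 bases with Dcbld2 on the other strand, and the reads do not keep strand. St3gal1, St3gal2 and St3gal4 were highest in KO 8, at 3.02, 2.84 and 2.59 times the median of the other 7 libraries. Without KO 8, St3gal1, St3gal4 and St6galnac4 turned negative (log2 fold changes −0.41, −0.61 and −0.035, none passing). The shared positive direction of this role thus depended on KO 8, whereas its sums did not overlap with or without that library. St6gal2 and St6galnac1 stayed under the level rule.

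The enzymes that make polysialic acid and related alpha2,8 chains did not pass. St8sia4 was at 24.6, 5.42, 0.754 and 2.07 CPM in KO 8, 9, 17 and 24 and 0.386, 1.61, 1.41 and 1.32 CPM in Het 6, 7, 13 and 19. KO 8 and KO 9 were high, the same libraries in which the leukocyte markers were highest, and KO 17 lay inside the Het range. Its log2 fold change was 2.79 (SE 0.98, edgeR adjusted p = 0.276; DESeq2 adjusted p = 0.0458), 1.19 without KO 8, 0.41 with the leukocyte markers as a covariate and −2.50 with the endocrine markers. St8sia3, the member of this role with the highest level, was at 64.0, 97.0, 128 and 126 CPM in KO and 108, 110.5, 104 and 105 CPM in Het, with KO 8 lowest (log2 fold change −0.05, SE 0.20, edgeR adjusted p = 0.953).

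St3gal5 and St8sia1 stand at the start of ganglioside synthesis: St3gal5 makes the ganglioside GM3, and St8sia1 turns GM3 into GD3. St3gal5 was at 33.4, 22.0, 22.0 and 15.004 CPM in KO 8, 9, 17 and 24 and 53.8, 46.1, 29.7 and 37.2 CPM in Het 6, 7, 13 and 19. Only KO 8 reached into the Het range. The log2 fold change was −0.85 (SE 0.27, edgeR adjusted p = 0.222), and without KO 8 it was −1.09 and passed (adjusted p = 0.0468), as it did with the mesenchyme markers as a covariate (−1.01, adjusted p = 0.0150). St8sia1 was at 14.9, 22.7, 10.6 and 18.7 CPM in KO and 16.5, 4.51, 5.39 and 4.06 CPM in Het, where Het 6 lay within the KO values (log2 fold change 1.13, SE 0.48, edgeR adjusted p = 0.381). B4galt6, a lactosylceramide synthase, had the highest level per kilobase of all members, with means of 40.6 CPM per kb in Het and 42.0 in KO (log2 fold change 0.05, SE 0.15, edgeR adjusted p = 0.932). Of the 11 described glycolipid enzymes none passed, 5 were negative and 6 positive, and their median log2 fold change was 0.05. St6galnac3 was at 59.7 CPM in KO 8, which was 19.3 times the median of the other libraries, and its log2 fold change went from 1.71 to −0.64 without that library.

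**Figure D3:**
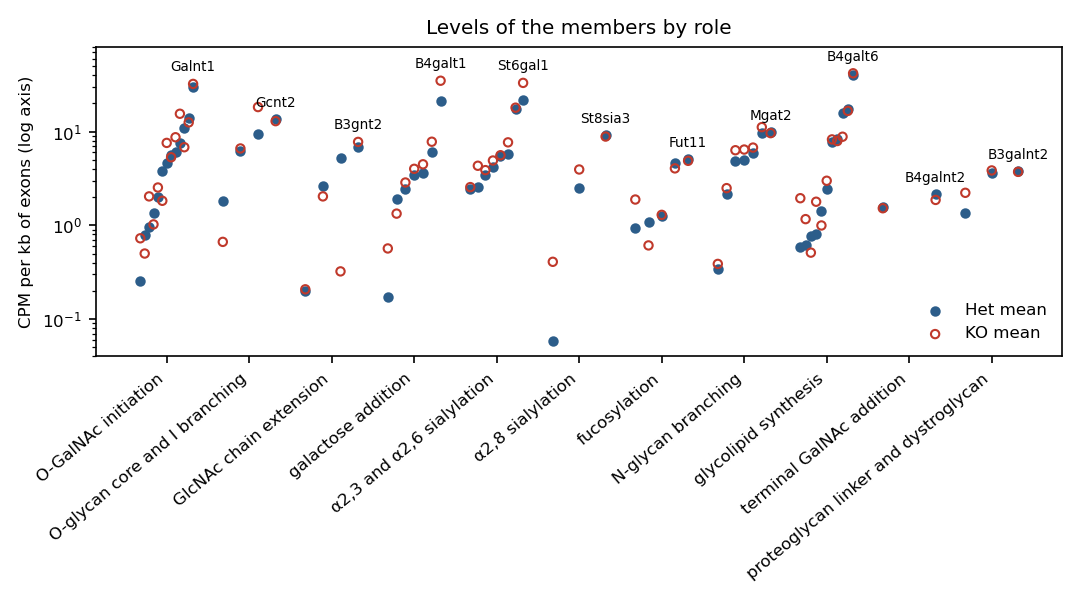
Mean level of each member with an annotated length, in CPM per kb of exons (vertical log axis), by role; filled blue points are Het means and open red points KO means, with the member of highest Het level named in each role. B4galt6 and Galnt1 are highest with means of 40.6 and 29.6 in Het, and the B3gnt3 pair in the role of chain extension is split from 5.28 to 0.323.

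The enzymes that add galactose, branch N-glycans, add fucose or build the linker of proteoglycans had no member that passed. B4galt1, the main lactosamine galactosyltransferase, was at 310.9, 102.7, 80.4 and 97.8 CPM in KO and 98.1, 114.9, 81.3 and 69.8 CPM in Het. KO 8 alone was high, and the log2 fold change of 0.70 (SE 0.40, edgeR adjusted p = 0.509) became 0.03 without it and −1.44 (adjusted p = 0.0722) with the endocrine markers as a covariate. B3galt1 was at 6.85, 3.03, 1.66 and 1.53 CPM in KO and 2.47, 0.865, 0.177 and 0.406 CPM in Het, with Het 6 inside the KO range (log2 fold change 1.72, SE 0.85, edgeR adjusted p = 0.450; 1.05 without KO 8 and −1.01 with the endocrine markers as a covariate). Of the 7 enzymes in the role of galactose addition 6 were positive, with a median of 0.32. Galactosyltransferases placed under glycolipids or the proteoglycan linker are not among the 7. Of these, B3galt4 and B4galt5 were negative (−0.51 and −0.06). B4galt6, B3galt6 and B4galt7 were positive (0.05, 0.08 and 0.71).

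The 7 described enzymes that branch N-glycans lay close to 0, with log2 fold changes from −0.03 to 0.38. Mgat1, which starts all complex N-glycans, was at 35.99, 32.9, 24.1 and 29.1 CPM in KO and 32.1, 19.9, 22.5 and 19.5 CPM in Het (log2 fold change 0.38, SE 0.22, edgeR adjusted p = 0.532). Mgat4a was at 83.9, 125, 67.4 and 71.7 CPM in KO and 75.2, 78.4, 74.0 and 74.2 CPM in Het, where the Het libraries were nearly level and KO 9 was high (log2 fold change 0.21, SE 0.20, edgeR adjusted p = 0.714). Fut8, which adds the core fucose of N-glycans, was at 28.3, 31.2, 32.0 and 36.7 CPM in KO and 51.9, 26.6, 30.2 and 38.4 CPM in Het (log2 fold change −0.20, SE 0.23, edgeR adjusted p = 0.773). Fut10 was at 13.6, 13.4, 6.11 and 4.76 CPM in KO and 4.33, 2.91, 6.45 and 4.97 CPM in Het, with KO 8 and KO 9 above the rest (log2 fold change 1.02, SE 0.45, edgeR adjusted p = 0.401; −0.61 with the endocrine markers as a covariate). Of 9 Fut rows 5 were described, with a median of −0.05, and Fut2, Fut4-ps1, Fut7 and Fut9 stayed under the level rule.

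Members of low level were also in the remaining roles. B4galt7, which adds the first galactose of the proteoglycan linker, ran from 4.75 to 7.64 CPM in KO and from 1.94 to 5.81 CPM in Het (log2 fold change 0.71, SE 0.47, edgeR adjusted p = 0.578). B3galnt2, an enzyme of dystroglycan glycans, ran from 21.0 to 26.6 CPM in KO and from 15.4 to 31.0 CPM in Het (log2 fold change −0.02, SE 0.23, edgeR adjusted p = 0.988). B4galnt2 and B4galnt4, which add terminal N-acetylgalactosamine, had log2 fold changes of −0.20 (SE 0.48, edgeR adjusted p = 0.906) and −0.03 (SE 0.39, edgeR adjusted p = 0.987). B4galnt3, Mgat4c and St8sia6 stayed under the level rule. At the edge of that rule, by the fourth-highest library, Gcnt3 (0.742 CPM), B4galnt3 (0.618 CPM) and Mgat4c (0.510 CPM) lay just outside, and Galnt5 (1.32 CPM), B3gnt8 and Mgat5b (both 1.36 CPM) just inside.

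**Figure D4:**
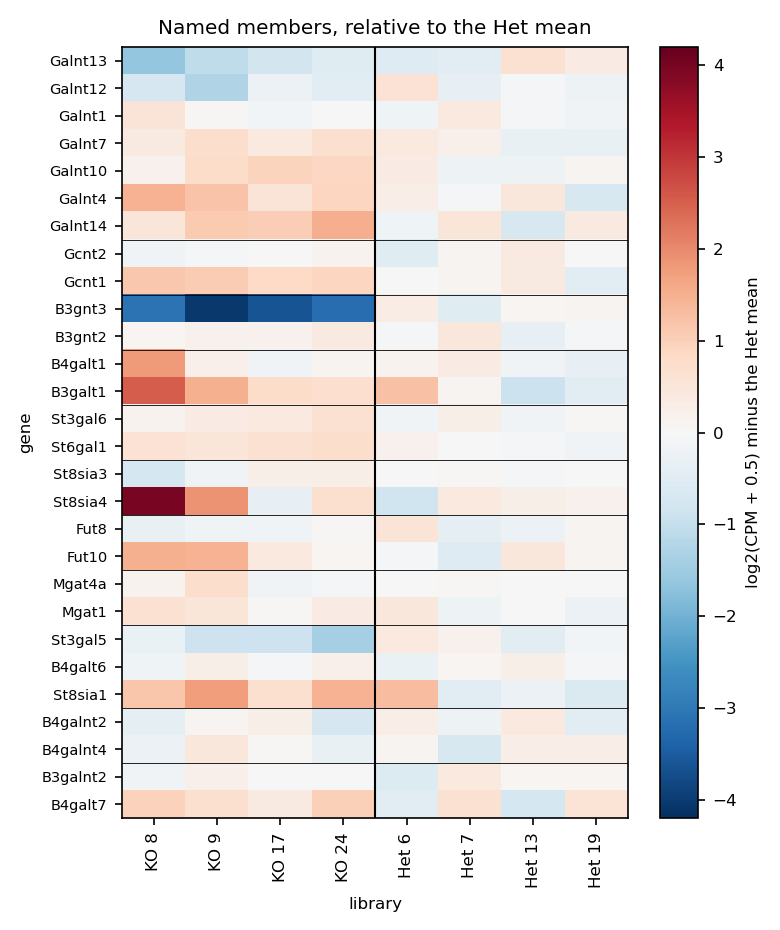
Level of the 28 named members in each library as log2(CPM + 0.5) minus the mean of the 4 Het libraries (colour scale; red higher, blue lower), with members in rows ordered by role and libraries in columns. B3gnt3 is the dark blue row in KO, and St8sia4, B3galt1 and B4galt1 are darkest in KO 8, where B4galt1 reached 310.9 CPM.

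The members closest to B3gnt3 in pattern were Galnt12, St3gal5 and Galnt13. Over the 8 libraries, the Pearson correlation of log2 CPM with B3gnt3 was 0.76 for Galnt12, 0.75 for St3gal5 and 0.72 for Galnt13. The 8 points share the genotype difference and their library totals. Within the 4 Het libraries the values were 0.74, −0.05 and 0.24. Other members ran there from −0.97 (St6galnac2) to 0.98 (Mgat2), so the order over 8 libraries was not kept. None of the 3 passed the test over 8 libraries.

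KO 8 was the highest library for 18 of the 68 members (26.5%, against 22.7% of all tested genes) and the lowest for 13 (19.1%, against 20.9%). Without KO 8, 2 members were called lower, B3gnt3 and St3gal5, beside a background of 1.31% of 14307 tested genes, and 2 were called higher, Gcnt1 and St6gal1, beside 0.678%. The median of the members was then 0.08, and that of all tested genes −0.00478. The part of the mesenchyme content of KO 8 in the values of single members was not tested. In the authors' deposited table, 0.981% of 18760 genes had an adjusted p under 0.05, and among the members B3gnt3 was lower and Gcnt1 higher at that threshold. All 68 members had the same sign there as in the edgeR fit, from the same counts.

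**Figure D5:**
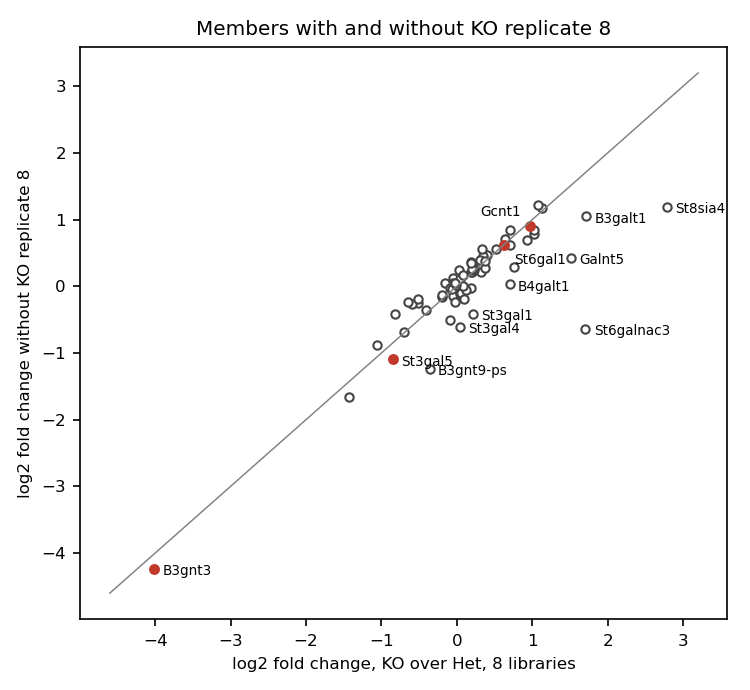
Log2 fold change of KO over Het for the 68 members with all 8 libraries (horizontal axis) and without KO replicate 8 (vertical axis); the grey line marks equal values, red points passed without KO 8, and members that moved by more than 0.6 or passed are named. B3gnt3, Gcnt1, St6gal1 and St3gal5 are near the line, and St6galnac3 moved from 1.71 to −0.64.

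Genes around the glycosyltransferases were read from lists of the pathway. Of 11 transporters of nucleotide sugars, all tested, 1 was called lower and 0 higher, with a median log2 fold change of 0.04. The called gene was Slc35b1, which belongs to this family by sequence and is known as a carrier of ATP and ADP across the membrane of the endoplasmic reticulum. It was at 99.6, 78.0, 106 and 110.6 CPM in KO 8, 9, 17 and 24 and 203, 180.2, 158 and 148 CPM in Het 6, 7, 13 and 19. The groups did not overlap (log2 fold change −0.80, SE 0.16, edgeR adjusted p = 0.0440). The call was made without KO 8 (adjusted p = 0.0289) and lost without any 1 of the other 7 libraries (0.0734 to 0.140), with total counts as scaling (0.0627), and with the acinar (0.0694), leukocyte (0.0945), Y-linked (0.173) or endocrine (0.238) markers as a covariate.

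The remaining lists had 0 genes called by edgeR. Their counts of unadjusted p under 0.05 can be read beside 12.2% of all tested genes, and no list was tested as a set. Of 27 tested genes for the synthesis of nucleotide sugars, 19 had negative and 8 positive log2 fold changes, 5 had an unadjusted p under 0.05, DESeq2 called 0, and the median was −0.21. Of 24 tested genes for Golgi structure and tethers, 20 were negative and 4 positive, 5 had an unadjusted p under 0.05, and the median was −0.15. Uso1, a tether of vesicles that arrive at the Golgi, was at 248, 254, 231 and 254 CPM in KO and 455, 328, 321 and 348 CPM in Het, without overlap (log2 fold change −0.56, SE 0.14, edgeR adjusted p = 0.114), and was the 1 gene of its list that DESeq2 called (adjusted p = 0.0150). Gorasp2, Cog3, Cog4 and Cog6 of this list also had no overlap with KO lower, as was the case for 4.48% of all tested genes. Of 9 genes for core 1 and the trimming of mannose, 2 were negative and 7 positive, 1 had an unadjusted p under 0.05, and DESeq2 called 0. C1galt1, which makes the core 1 glycan that B3gnt3 and Gcnt1 use, had a log2 fold change of 0.12 (SE 0.24, edgeR adjusted p = 0.880), and its chaperone C1galt1c1 one of −0.46 (SE 0.24, edgeR adjusted p = 0.471). Man2a1, a mannosidase of N-glycan maturation, was at 455, 238.5, 176 and 206 CPM in KO and 171, 150.5, 154 and 138 CPM in Het. Its groups did not overlap (log2 fold change 0.81, SE 0.27, edgeR adjusted p = 0.231). It was called with the mesenchyme markers as a covariate (edgeR adjusted p = 0.0355). Its log2 fold change was 0.42 without KO 8 and −0.64 with the endocrine markers as a covariate. Of 7 tested sulfotransferases of glycans, 5 were negative and 2 positive, 0 had an unadjusted p under 0.05, and DESeq2 called 0. Chst8 had the smallest p (log2 fold change −1.48, SE 0.76, edgeR adjusted p = 0.471). It had only 2, 22, 24 and 8 counts in KO 8, 9, 17 and 24 and 16, 51, 48 and 38 in Het 6, 7, 13 and 19. Its groups overlapped, and its log2 fold change was 0.87 with the endocrine markers as a covariate.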

How the data were processed

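The authors deposited whole-number counts per gene symbol, 1 file per library and not normalized. The submitters' processing notes name the build mm9 and the tools DESeq, Cufflinks (2.0.2), TopHat2 (2.1.0) and bcl2fastq (1.8.4); the sources used here do not name the counter, its annotation or the handling of ambiguous reads. The NuGEN Ovation V2 kit does not keep strand, so reads of overlapping genes cannot be told apart. The authors' deposited comparison gives group means of scaled counts (a signal), the fold as a ratio, its log2 value, and a p-value with its adjusted form.

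Genes were tested with edgeR 4.0.16 in R 4.3.3 (filterByExpr with a minimum count of 10 and a minimum total of 15, TMM, two-sided, no covariate; common dispersion 0.181). DESeq2 1.42.0, limma 3.58.1, other scalings and filters, marker covariates and fits without each library were alternatives; the leukocyte and endocrine covariates were chosen after seeing the data. No libraries held identical values, and the closest pair of a genotype had a chi-square per degree of freedom of 18.2. Replicate numbers are the labels' library numbers. The fits were tested on simulated data.

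Members and lists were chosen with earlier results of these data known. Named are B3gnt3, members called or with an unadjusted p under 0.05, the member with the smallest p and that with the highest mean CPM in each role, the called or else smallest-p gene of each other list, the 3 members most correlated with B3gnt3, and Neurod1, which gave 28 members and 5 other genes, 1 of them not reported here; further genes were named after their values were seen. Of 82 rows, 81 had an exon length. B3gnt1 is an older symbol of more than 1 gene and is placed by its symbol only, and B3gnt9-ps is B3gnt9.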

Additional observations from a re-analysis of the deposited data

Results flagged for a closer look

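The levels of the 28 named members, 5 other named genes and Neurod1 were searched in each genotype for a library far from its group, by Dixon's ratio of the gap to the range at the 95% level. Of 68 groups checked, 4 were past it, and chance gives about 1 in 20. St8sia1 was at 16.5 CPM in Het 6, where the nearest Het library was at 5.39 CPM. Galnt1 was at 214.6 CPM in Het 7, where the nearest was at 153 CPM. B4galt1 was at 310.9 CPM in KO 8, where the nearest KO library was at 103 CPM. Neurod1 was at 210.5 CPM in Het 19, where the nearest Het library was at 141 CPM.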

How the results depend on the processing

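B3gnt3 was called lower under all 20 alternatives, with log2 fold changes from −4.47 to −3.79 and a highest adjusted p of 0.0332 (endocrine covariate). The count of members called lower was 1 in the reported fit, 2 with the mesenchyme covariate (St3gal5 added), 2 with the endocrine covariate (St3gal4 added) and 1 to 2 with each library left out. The count called higher, 2 in the reported fit, was 4 with DESeq2, 3 with limma-voom and quality weights, 4 with the mesenchyme covariate, 1 with no filter on low counts, 0 in edgeR with the acinar, Y-linked, leukocyte or endocrine covariate, and 0 to 2 with each library left out, being 2 only without KO 8. Genes called over the whole table numbered 144 in the reported fit, 585 with DESeq2, 500 with limma-voom and quality weights, 588, 75, 28 and 375 with the mesenchyme, acinar, Y-linked and endocrine covariates, and 29 to 285 with each library left out. Of the other glycosylation genes 1 was called in the reported fit, 2 with DESeq2, 2 with limma-voom and quality weights, 4 with the mesenchyme covariate, 0 with total counts or with the acinar, Y-linked or leukocyte covariate, and 0 to 1 with each library left out. The causes of these moves were not tested, and fits with fewer libraries or a covariate also have fewer degrees of freedom. The number of members described, 68, was 56 to 71 under other level rules. B3gnt3, Gcnt1, St6gal1, Slc35b1 and Neurod1 kept their direction under each alternative run; other called genes of the table were not followed, and St3gal4 had a log2 fold change of 0.04 in the reported fit. The endocrine covariate contains Neurod1 and hormone genes that differ between the genotypes. No paired analysis was possible because the genotypes share no replicate number. At 6 to 19 counts in KO the size of the fall of B3gnt3 is limited by counting error, and members under 1 CPM could not be judged at this depth.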
